A study of Populus tremula x Populus alba with 24 samples.

Results

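Genes were measured in poplar roots after lipochitooligosaccharide (LCO) treatment. Of 42950 genes, 74 stood below their control level by a set margin at the first time sampled and at every later one. They were chosen by a rule on the deposited levels themselves: a control mean of at least 5 TPM, a mean log2(TPM + 1) at least 1 unit under the control mean at all 7 times, and all 19 treated libraries below the lowest control library. TPM is a relative transcript level corrected for transcript length and library total. Every comparison of a treated time with the control was thus used to choose the genes, and these differences are given as a description, with no test. Comparisons of treated times with each other were not used by the rule and were tested. The levels that enter them are the ones the rule used, however, and it caps how high each may be. Shares of the 74 that fell or rose are thus a description beside those of all tested genes, which had no such cap.

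The plants were 1 clone, 717-1B4, of the hybrid Populus tremula x alba, grown in vitro and then for 10 days on vertical plates with 0.5 mM nitrogen and 7 μM phosphate, so that low nutrients were common to all groups. Treated roots were flooded for 1 h, from 3 h after dawn, with purified LCO of Rhizobium sp. IRBG74 at 10 nM. The labels also name a control solution of 0.005% ethanol. Treated roots were taken at 7 times, with 2 libraries each at 30 min and 2 h and 3 each at 15 min, 1 h, 4 h, 8 h and 24 h. Control roots, also with 3 libraries, were taken at time 0 only. Each library pooled the whole roots of 4 plants, so fewer cells of a type and less RNA per cell cannot be told apart, and the labels call the pools biological replicates. Whether the time 0 roots had been in that solution, and from when the times count, is unclear from the labels. LCO, flooding, time since handling and, except at 24 h, time of day cannot be told apart in any difference from the control.

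LCOs are short chitin chains that carry a fatty acid. Rhizobia release them as Nod factors, and many mycorrhizal fungi make related molecules. Plant cells perceive them through LysM receptor kinases at the plasma membrane, and the best known downstream event is a rhythmic calcium signal at the nucleus that is decoded by a calcium- and calmodulin-dependent kinase and leads to changes in transcription. The level of a transcript at any time reflects both its synthesis and its decay. No table pairing the Potri identifiers with gene names was used here, so the genes go by identifier, and their functions, promoters and protein sequences are not given. For the same reason the root label was not checked against marker genes.

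Per the labels, 30 min and 2 h each had 1 more replicate, not analysed here, and the read depth behind each level is unknown. Genes listed at 0 ranged from 9029 to 13313 per library. Over the 74 genes, 15 min replicate 2 stood apart from the other libraries of its time. Its median difference from the control mean was -1.73 log2 units, against -2.28 and -2.31 in replicates 1 and 3, and it held the highest 15 min value for 49 of the 74 genes. It also had 12139 genes listed at 0, against 9241 and 9265 in replicates 1 and 3. The part of this library in the results below was measured by leaving it out. Applied without it, the rule found 77 genes, all 74 among them.

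The rule kept 74 of the 16440 genes with at least 5 TPM in the control, which is 0.45%. Of the same 16440 genes, the share lying at least 1 log2 unit below control was 3.53% at 15 min, and the 30 min and 1 h shares were 4.6% and 2.97%. It was 4.27% for 2 h, 5.52% for 4 h, 12.7% for 8 h and 12.8% for 24 h. In 206 genes (1.25%) every treated library lay below every control library. The depth condition at all times was met by 90 genes, and 16 of these were left out because at least 1 treated library reached the lowest control. In the opposite direction, a mirrored rule with a mean of at least 5 TPM after treatment found 2 genes.

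**Figure D1:**
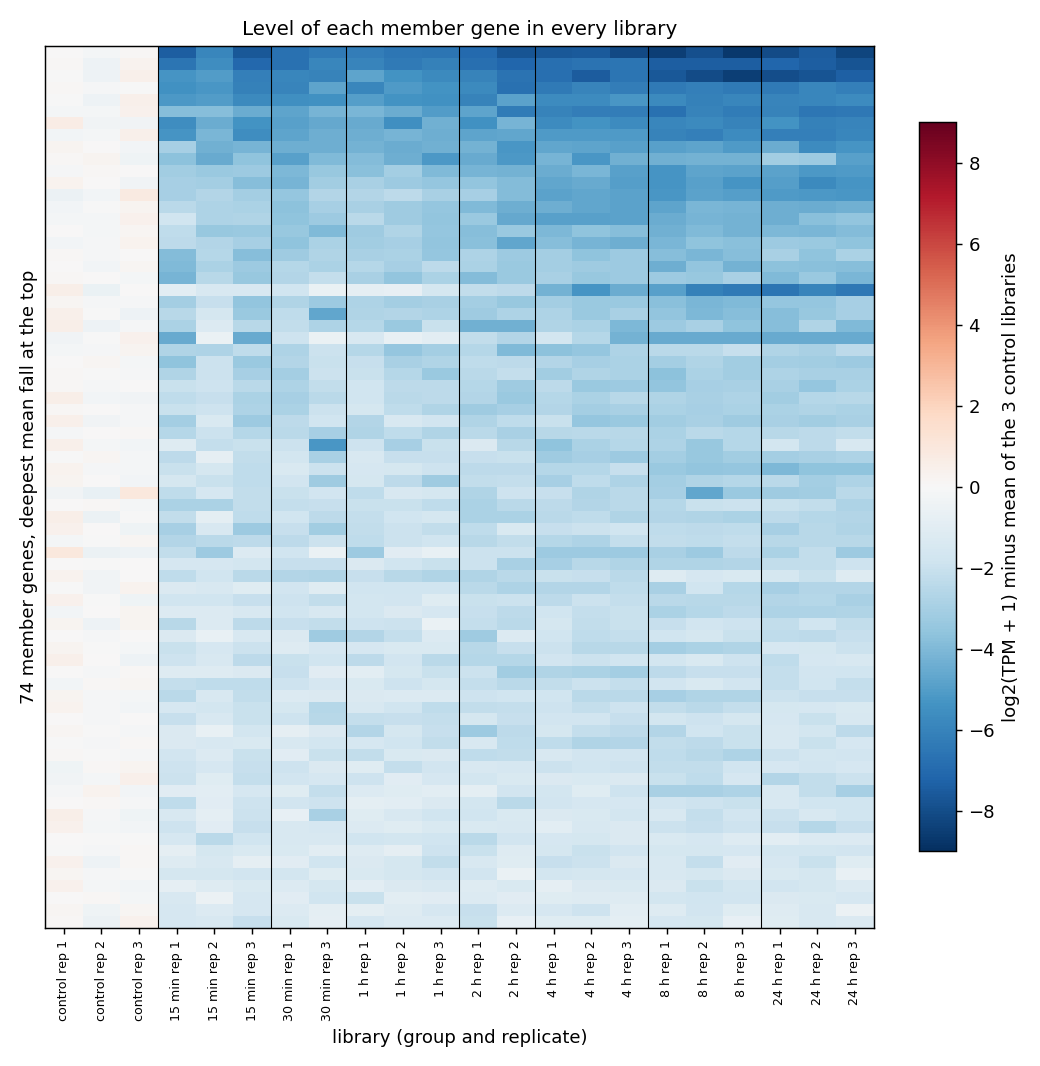
Heat map of the 74 genes (rows, deepest mean fall at the top) in the 22 libraries (columns, grouped by time). Colour gives log2(TPM + 1) minus the mean of the 3 control libraries, and all 19 treated columns are blue in every row, as the rule requires, with the darkest cells at 8 h and 24 h in the top rows.

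In the control, the genes spanned 5.22 to 3018 TPM with a median of 35.4 TPM, where the median of all 16440 genes was 16.7 TPM. Levels above 100 TPM were seen for 26 of the 74 (35.1%), against 9.65% of all 16440 genes. The rule itself favours higher control levels, since the added 1 TPM shrinks differences of low levels. These medians and shares are thus not compared like for like. The 3 control libraries varied by a median coefficient of variation of 21.0%, and in 6 genes the highest control was at least 2-fold the lowest. The distance from the lowest control to the highest treated library was 1.13 log2 units at the median and ranged from 0.04 to 5.73. It exceeded 1 unit in 41 genes and 3 units in 8.

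The summed level of the 74 genes was 13133, 10785 and 14916 TPM in the 3 controls. It was 1715, 1916 and 1311 TPM at 15 min, 1358 and 1663 TPM at 30 min, and 1856, 1682 and 1337 TPM at 1 h. From 15 min to 1 h the groups overlapped, at 12.7%, 11.7% and 12.6% of the mean control sum. The sum then stood at 1151 and 951 TPM at 2 h, and at 977, 779 and 833 TPM at 4 h. The lowest sums, 712, 732 and 774 TPM, were those of 8 h, or 5.71% of control. One day after treatment, at the control's own hour, the libraries held 912, 911 and 1014 TPM (7.31%), all above the 3 libraries of 8 h. The 3 most abundant genes made up 37.5% of the control sum. At 8 h these 3 genes held only 51.6, 55.4 and 49.4 TPM together, so other genes made up most of the sum there. A change in the sum need not be shared by all of the 74.

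**Figure D2:**
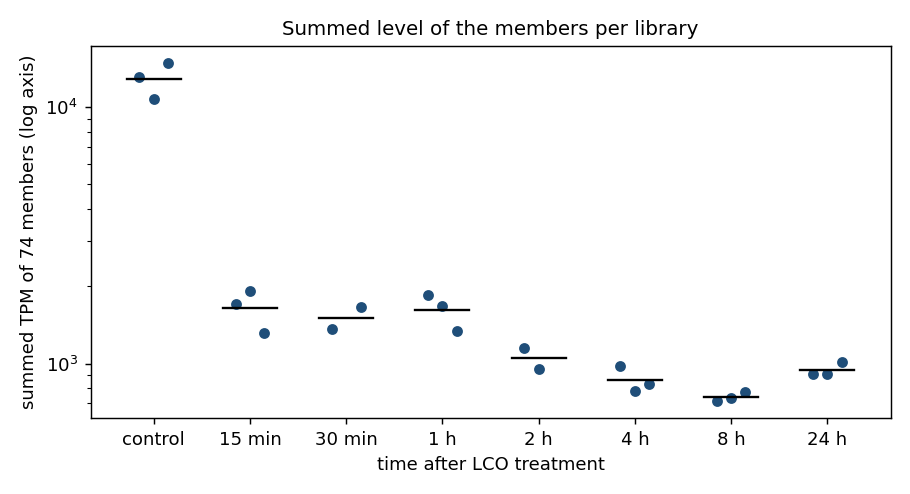
Summed TPM of the 74 genes in each library (points, log axis) by time, with group means as lines. Controls lie between 10785 and 14916 TPM, libraries of 15 min to 1 h between 1311 and 1916 TPM, and those of 8 h between 712 and 774 TPM.

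Gene by gene, the median difference from control was -2.14 log2 units at 15 min, -2.16 at 30 min and -2.09 at 1 h, and -2.42, -2.67, -2.83 and -2.75 in the later groups from 2 h to 24 h. The median over all 16440 genes stayed between -0.06 and 0.03 at every time. At 15 min 13 of the 74 stood at least 10-fold below control, at 8 h 25 and at 24 h 24. These counts are on the log2(TPM + 1) scale, where the added 1 TPM shrinks folds of low levels. In plain TPM, Potri.009G147900 stood 29.2-fold below control at 24 h, but its log2 difference was -2.70 and it was not counted. The deepest mean was the 8 h one for 25 genes and the 24 h one for 17. It was that of 2 h for 13 genes, of 4 h for 10, of 30 min for 6 and of 15 min for 3, and for none that of 1 h. On the log2 scale, the difference at 15 min made up a median of 72.2% of the deepest one. It was at least 75% in 32 genes and under 50% in 8.

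At all 7 times, 10 genes were at least 10-fold and 31 at least 4-fold below control on the log2(TPM + 1) scale. The 10 deepest had a median control level of 331 TPM and none was under 67.1 TPM, while the other 64 had a median of 26.7 TPM. Because 1 TPM was added before taking logs, a gene with a low control level cannot show a deep fall on this scale.

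Potri.008G062300 had the deepest mean fall. It stood at 1080, 929 and 1093 TPM in the controls and at 5.01, 16.5 and 4.10 TPM at 15 min, 0.826% of the control mean. From 30 min to 1 h its 5 libraries held 8.93 to 12.7 TPM, and from 4 h to 24 h its 9 libraries held 1.57 to 4.74 TPM. The highest treated library was 15 min replicate 2, and the libraries from 4 h on lay below those of 30 min and 1 h without overlap.

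Potri.006G223900 was the most abundant of the 74 and ranked 14 among all genes in the control, at 2891, 2104 and 4059 TPM. It stood at 73.9, 89.0 and 39.5 TPM at 15 min, and at 109, 70.1 and 54.4 TPM at 1 h. By 8 h it was at 14, 10.1 and 7.22 TPM and by 24 h at 10.3, 12.5 and 16.9 TPM. No library of 8 h or 24 h overlapped with any of 15 min to 1 h.

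On the log2(TPM + 1) scale, Potri.014G069100 was the steadiest after its fall. Its differences from control stayed within 0.34 log2 units of each other over the 7 times, the narrowest span of the 74. Its treated group means, 1.29 to 1.89 TPM, lie near the added 1 TPM, which narrows that span. In plain TPM the means of Potri.004G082100, 7.19 to 9.60 TPM, spanned less in proportion. Potri.014G069100 was low in every treated library. It stood at 12.7, 13.5 and 14.2 TPM in the controls, at 1.5, 2.72 and 1.44 TPM at 15 min, and at 1.52, 1.83 and 2.12 TPM at 24 h. The treated groups overlapped throughout, between 0.822 and 2.72 TPM.

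Whether the genes moved again after 15 min was tested between treated times with limma over the 25636 genes whose mean over all 22 libraries reached 1 TPM, and p-values were adjusted over all of them by the Benjamini-Hochberg method (call at an adjusted p under 0.05). All 74 passed this filter, 8 of them only through their controls, since their mean over the treated libraries was 0.448 to 0.946 TPM. An F test among the 7 treated groups called 37 of the 74, where 57.5% of all tested genes were called, a share near that of the 74. From 15 min to 8 h, 31 of the 74 fell further (41.9%), where 13% of all tested genes fell, and 2 rose (2.70%, against 16.7%). With the filter set on the treated libraries alone, an alternative added after seeing the data, 66 of the 74 were tested, and 30 of these fell (45.5%, against 12.9% of all 25678 genes then tested) and 1 rose. The median difference over the 74 was -0.70 log2 units, against 0.08 over all tested genes.

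From 15 min to 24 h, 21 of the 74 fell further (28.4%), against 13.3% of all tested genes, and 1 rose (1.35%, against 17.3%). The median difference was -0.52 log2 units, against 0.11 over all tested genes. Of the 21, 19 had also fallen from 15 min to 8 h. The comparisons share the 15 min libraries, and the ceiling set by the rule limits how many of the 74 could rise. It was not placed on the other genes tested, so neither the falls nor the rises are compared like for like. Without 15 min replicate 2, 24 genes fell to 8 h and 16 to 24 h, and 1 and 3 rose.

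Between 8 h and 24 h, 1 of the 74 passed the test. In limma 0 fell (1.42% of all tested genes did), with 0 also at an unadjusted p under 0.05, and 1 rose (1.35%, against 1.23% of all tested genes), with 8 at an unadjusted p under 0.05. The count of rises was 6 with library weights, 5 without 15 min replicate 2 and 30 min replicate 3, 3 with only the 8 h and 24 h libraries in the fit, and 2 with a filter at a mean of 5 TPM. It was also 2 without any 1 of 15 min replicates 1 and 2, 30 min replicates 1 and 3, and 4 h replicate 1. The median difference was 0.07 log2 units with a range of -0.59 to 1.2. The fit used 1 spread per gene for all groups. The median SD over the 74 genes was 0.42 log2 units at 15 min, against 0.20 at 8 h and 0.24 at 24 h. The median standard error of 0.29 thus does not describe the 8 h and 24 h libraries alone. In this pooled fit, even changes near 1 log2 unit could be missed for most of these genes. Potri.010G111600, at 0.79 log2 units with a smaller standard error of 0.21, was not called (limma adjusted p = 0.0557).

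**Figure D3:**
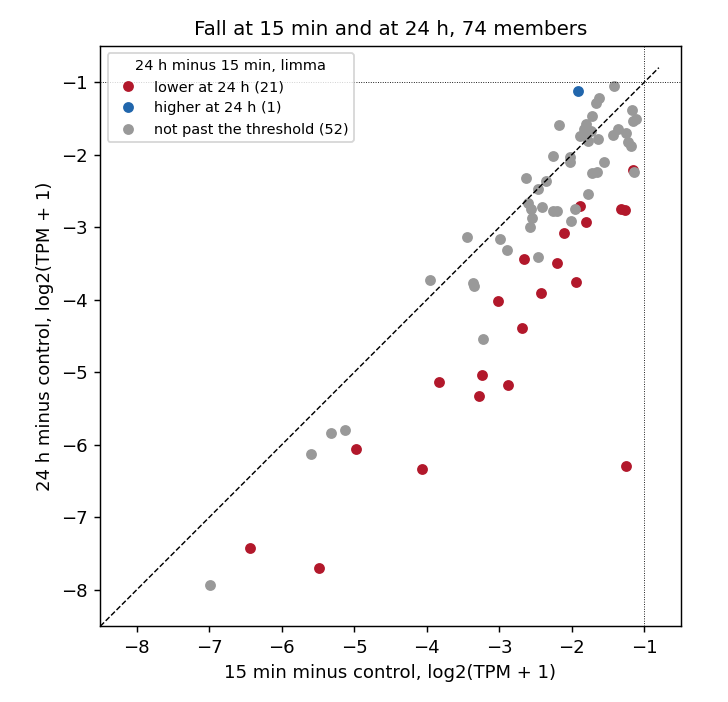
Difference from control at 15 min (x axis) and at 24 h (y axis) for the 74 genes, in log2(TPM + 1) units, with equality as the dashed line and the rule's limit of -1 as dotted lines. The 21 genes that fell further (red) lie below the dashed line, 1 gene that rose (blue) lies above it, and the other 52 (grey) did not pass the test.

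The largest second fall was that of Potri.012G006800. In the controls it stood at 639, 291 and 447 TPM, at 15 min at 231, 163 and 162 TPM, at 30 min at 124 and 284 TPM and at 1 h at 246, 257 and 144 TPM. It then held 91.9 and 83.5 TPM at 2 h, 21.6, 10.2 and 18.5 TPM at 4 h, 14, 5.35 and 4.32 TPM at 8 h and 3.67, 6.26 and 4.14 TPM at 24 h. Only 19.9% of its deepest difference was present at 15 min, the smallest share of the 74. Its libraries of 15 min to 1 h overlapped, and from 2 h on all lay below them. The level fell by 4.53 log2 units from 15 min to 8 h (SE 0.40, limma adjusted p = 2.24e-07) and by 5.04 from 15 min to 24 h (SE 0.40, limma adjusted p = 4.22e-08).

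Potri.006G223900, given above, fell by 2.55 log2 units from 15 min to 8 h (SE 0.35, limma adjusted p = 2.77e-05). Potri.008G054000 stood at 212, 258 and 556 TPM in the controls and at 38.8, 50.5 and 37.2 TPM at 15 min. It was at 49.6, 58.8 and 40.9 TPM at 1 h, and at 10.3, 11.2 and 10.3 TPM at 4 h. At 24 h it held 8.31, 7.72 and 7.17 TPM, below every library of 15 min without overlap, a fall of 2.29 log2 units (SE 0.30, limma adjusted p = 1.81e-05). Most of this lay between 1 h and 4 h, where its mean went from 49.8 to 10.6 TPM, and over the same step Potri.012G006800 went from 216 to 16.8 TPM; this step itself was not tested.

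The 1 gene that rose from 15 min to 24 h was Potri.017G123900. It stood at 11.1, 10.6 and 10.5 TPM in the controls, at 3.05, 1.23 and 2.40 TPM at 15 min and at 4.97, 4.10 and 4.10 TPM at 24 h. The 24 h libraries lay above those of 15 min and below the controls. The rise was 0.78 log2 units (SE 0.20, limma adjusted p = 0.00720). With only the 15 min and 24 h libraries in the fit its adjusted p was 0.0760, and over its alternatives it ranged from 0.00247 to 0.0760.

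From 15 min to 8 h, Potri.006G226800 rose from 1.53, 2.53 and 1.34 TPM to 4.48, 3.32 and 3.86 TPM, with 14.3, 9.03 and 11.8 TPM in the controls. The rise was 0.82 log2 units (SE 0.23, limma adjusted p = 0.0129). It missed the threshold without 15 min replicate 3 (0.0524) or 8 h replicate 1 (0.0540), with a range of 0.000421 to 0.0540. Potri.013G018000 went from 0.372, 0.241 and 0.260 TPM to 0.833, 1.33 and 0.842 TPM (0.63 log2 units, limma adjusted p = 0.0260), with controls of 4.13, 5.51 and 6.02 TPM. These treated levels lie near or under the 1 TPM added before taking logs, and the gene passed the filter on low values only through its controls (mean over the treated libraries 0.645 TPM). Its call was lost without 15 min replicate 2 (0.0632), 15 min replicate 3 (0.0602) or 8 h replicate 2 (0.115), without both 15 min replicate 2 and 30 min replicate 3 (0.0512), and in a fit of the 15 min and 8 h libraries alone (0.0833), and its adjusted p ranged from 0.00562 to 0.115.

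Potri.008G130500 alone rose from 8 h to 24 h. It stood at 270, 218 and 198 TPM in the controls, at 56.8, 77.1 and 58.4 TPM at 15 min and at 77.1, 88.8 and 88.2 TPM at 1 h. It went down to 26.2, 30.3 and 33.9 TPM at 8 h and was at 78.4, 73.4 and 59.7 TPM at 24 h. The 8 h libraries lay below all others, and those of 24 h overlapped with 15 min and 1 h. The rise was 1.2 log2 units (SE 0.19, limma adjusted p = 0.00208). The preceding fall from 15 min to 8 h was -1.06 log2 units (SE 0.19, limma adjusted p = 0.000465), and 24 h minus 15 min was 0.14 (limma adjusted p = 0.616).

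**Figure D4:**
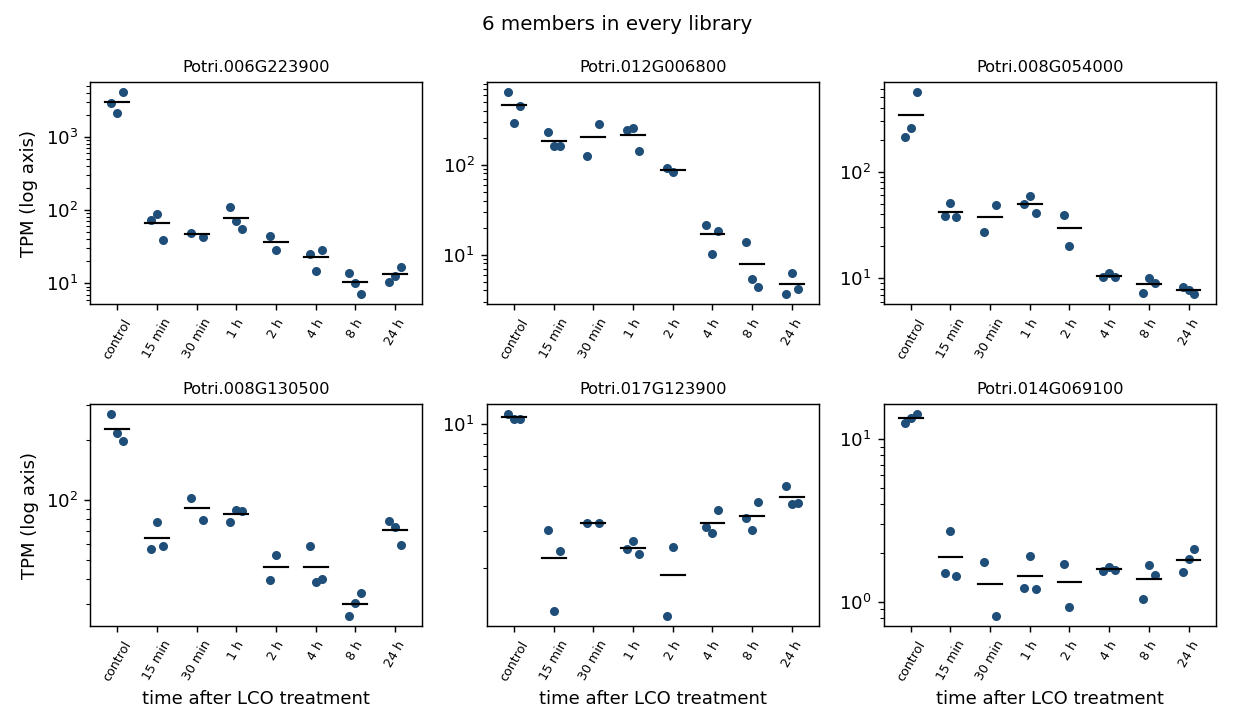
TPM of 6 of the 74 genes in each library (points, log axes that differ between panels and do not start at 0) by time, with group means as lines. Potri.012G006800 and Potri.008G054000 step down again after 1 h, Potri.008G130500 is lowest at 8 h, Potri.017G123900 is higher at 24 h than at 15 min, and Potri.014G069100 keeps within 0.822 to 2.72 TPM after the control.

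The gene nearest to the rule's limit was Potri.005G214850, with a difference of -1.02 at 1 h. Its controls were at 17.4, 21.5 and 29.2 TPM. It was listed at 0 in 15 min replicates 1 and 3 but at 14.5 TPM in replicate 2, at 7.75, 13.3 and 11 TPM at 1 h, and at 0 in all 6 libraries of 8 h and 24 h. Depth is unknown, so a listed 0 does not mean that no transcript was there. Next inside the limit was Potri.017G082701, at -1.04 at 4 h. Just outside were Potri.005G088300, at -0.98 at 30 min, and Potri.002G160800, at -0.97 at 1 h, both of which met the other conditions. In all, 10 of the 74 genes had at least 1 treated library at 0.

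Potri identifiers carry a chromosome number and run along the chromosome of the reference genome. Whether the same order holds in the hybrid clone studied was not examined. Of the 74, 73 carry such a number, spread over 18 chromosomes, and 1 lies on an unplaced piece. Shares were taken of the genes with at least 5 TPM in the control on the same chromosome. Chromosome 19 held the most (7 genes, 1.69%), followed by chromosome 13 (6, 0.884%), chromosome 17 (4, 0.749%) and chromosome 10 (8, 0.691%). Of the 7 on chromosome 19, 5 lay in a single group of close neighbours described below, so that share rests largely on this group. The smallest share on a chromosome with any was that of chromosome 5 (2, 0.181%), and the share over all 16440 genes was 0.45%. In 5 places, 2 or more of the 74 stood within 15 rows of each other in the table, and 13 of the 74 lay in these places. How many such places other sets of 74 genes would give was not counted, so no excess of neighbours is claimed. Close neighbours can be similar copies of a gene, and reads that fit several copies are shared out by an estimate, so levels of neighbours are uncertain; which of them are similar was not examined.

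The largest such group ran from Potri.019G116600 to Potri.019G117700 and held 5 of the 74, with control means of 6.20 to 71.1 TPM. Of the 8 other genes listed between its ends, 3 had at least 5 TPM in the control, and all 3 were below control at all 7 times. The share of all genes below control at all 7 times was not counted. Potri.019G116800 had a mean of 146 TPM before treatment, 74.7 TPM after 15 min and 19.7 TPM after 24 h, and missed the rule by its -0.95 at 15 min. Potri.019G116600, at the head of the group, fell again after 15 min, by 1.81 log2 units to 24 h (SE 0.21, limma adjusted p = 5.12e-06). In another place the adjacent Potri.014G056600 and Potri.014G056500 differed in level, at 535 ± 31.3 and 37.6 ± 11.5 TPM in the control (SD, n = 3).

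The transcript table, normalized separately, shows which forms of these genes dropped. Most of the 74, 61 genes, had a single annotated transcript, and 13 had 2 or more. Of the 76 transcripts with at least 5 TPM in the control, 73 met the rule at the transcript level. Potri.004G082100 had 2 such transcripts, of which 0 met it, and Potri.010G200500 had 0 such transcripts. These values come from the same reads as the gene levels and are no separate evidence.

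Of 3 genes with 2 transcripts at 5 TPM or more in the control, only Potri.014G149400 had a main transcript whose mean share fell by 15 min. In Potri.003G109200 that share went from 81.5% in the control to 94.8% at 15 min and 80.9% at 24 h. In Potri.004G082100 it went from 60.4% (controls 48.5% to 71.8%) to 72.8% at 15 min and 79.5% at 24 h. Genes whose other transcripts were under 5 TPM were not compared in this way, although shares moved there too. The main transcript's mean share went from 84.9% in the control to 47.3% at 15 min in Potri.003G115400. In Potri.006G226800 it went up, from 86.6% to 95.9%. Transcript 2 of Potri.014G149400 stood at 174, 192 and 253 TPM in the controls and at 14.6, 13.3 and 12 TPM at 15 min. Its transcript 1 stood at 21.6, 19.1 and 28.4 TPM in the controls and at 27.9, 23.6 and 15.6 TPM at 15 min, so that its groups overlapped. Transcript 1 was lower at 1 h, at 14.4, 13.9 and 12.1 TPM, and at 4 h, at 8.16, 6.44 and 5.52 TPM.

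The share of transcript 2 in the sum of both was 89.9 ± 0.993% in the control (SD, n = 3), 38.0 ± 4.89% at 15 min (n = 3) and 38.7 ± 3.12% at 24 h (n = 3). It ranged from 26.3% to 50.3% over the 19 treated libraries, with no overlap with the controls at 88.9% to 90.9%. The gene was singled out after its values were seen, so no test is given, and the error of dividing shared reads between transcripts is not in these values.

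**Figure D5:**
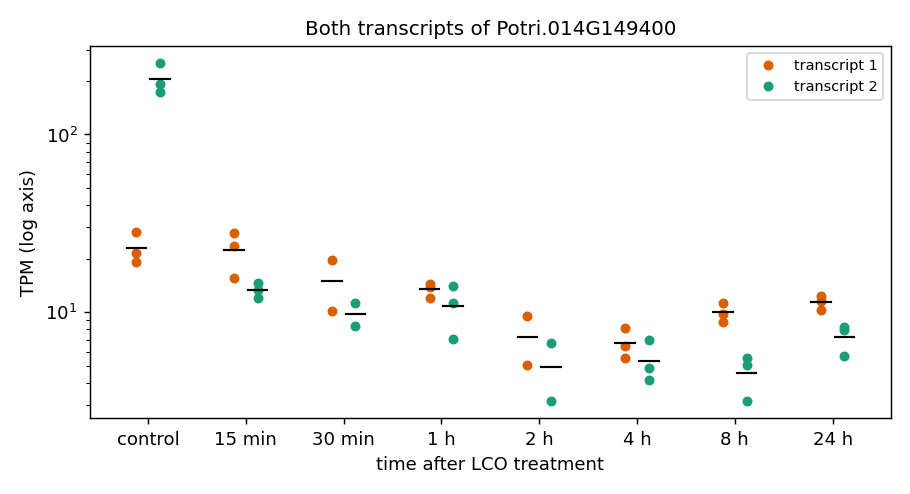
TPM of transcripts 1 and 2 of Potri.014G149400 in each library (points, log axis) by time, with group means as lines. Transcript 2 has a mean of 206 TPM in the control and 13.3 TPM at 15 min, while the points of transcript 1 overlap between these groups.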

How the data were processed

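RNA levels were measured by RNA sequencing of pooled poplar roots. Both deposited tables, for genes and transcripts, give natural log values, ln(TPM + 1), that the authors had quantile-normalized over the libraries, as the tables' names and values show; base e gives library sums of 936253 to 936552 TPM. The submitters' processing notes name kallisto and sleuth without versions, with the genome build not given in the sources used here. Quantile normalization removes any change in total output, and TPM keeps no depth.

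Values were back-transformed and taken as log2(TPM + 1). One fit in limma 3.58.1 (R 4.3.3) took all 22 libraries, with a mean for each group, a mean-variance trend and 14 residual degrees of freedom. It was first run on simulated data in which each gene had the same spread in all groups. Such data cannot show how the fit behaves where groups differ in spread. All tests were two-sided. Plots used matplotlib 3.10.9.

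The members, lists, tests and alternatives were chosen with earlier results of these data known. The planned gene lists, marker lists and promoter motifs needed an annotation and were not used. The planned naming rule was therefore narrowed to the deepest and most abundant genes, those nearest the limit, and at most 2 called genes in each direction per comparison. The steadiest gene and genes named for their neighbours or transcripts were chosen after their values were seen. The design had assumed 24 libraries.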

Additional observations from a re-analysis of the deposited data

Results flagged for a closer look

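The following genes differed between treated times by a test of the difference itself, in limma over all genes tested. Lower at 8 h than at 15 min were Potri.012G006800 (log2 difference -4.53), Potri.006G223900 (-2.55) and Potri.008G130500 (-1.06), and higher at 8 h were Potri.006G226800 (0.82) and Potri.013G018000 (0.63). Lower at 24 h than at 15 min were Potri.012G006800 (-5.04), Potri.008G054000 (-2.29) and Potri.019G116600 (-1.81), and higher was Potri.017G123900 (0.78). Potri.008G130500 was higher at 24 h than at 8 h (1.2). No group had the 4 libraries needed to look for a single library far from the rest.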

How the results depend on the processing

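The rule found 68 genes without control replicate 1 and 97 without control replicate 2, the extremes of leaving out 1 library at a time, and 46 with a limit of -1.5 log2 units. Leaving out 1 library at a time gave 33 to 47 genes in the F test; 24 to 34 falls and 0 to 3 rises from 15 min to 8 h; 16 to 27 falls and 1 to 3 rises from 15 min to 24 h; and 0 falls and 1 to 2 rises from 8 h to 24 h. Every count of falls, and the F test count, stayed within 1.5 times its reported value under all alternatives. Counts of rises, reported as 2, 1 and 1 for 8 h minus 15 min, 24 h minus 15 min and 24 h minus 8 h, moved with the setting, and the cause was not tested. They were 0, 0 and 2 with a filter at a mean of 5 TPM (which only 50 of the 74 pass), 5, 3 and 6 with library weights, and 1, 0 and 3 with only the libraries of the groups compared. They were 1, 1 and 1 with the filter on low values set on the treated libraries alone, added after seeing the data. Without both 15 min replicate 2 and 30 min replicate 3, rises were 3 for 24 h minus 15 min and 5 for 24 h minus 8 h. The labels give no meaning to the replicate numbers, and 23 of 70 same-numbered pairs of libraries had a correlation of deviations over 0.1 (median 0.048), against 30 of 141 differently numbered pairs (median -0.031), so the numbers were not taken as pairing. A replicate block gave 39 genes in the F test, and kept each of the 10 calls of named genes between treated times.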
